A study of Mus musculus with 12 samples.

Results

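The 10 core fatty acid synthesis genes are Acly, Acss2, Acaca, Acacb, Fasn, Me1, Thrsp, Pnpla3, Srebf1 and Mlxipl. They were chosen by gene symbol, as the carbon-supply, carboxylation, synthase and reducing steps of the pathway with its best known transcriptional regulators and lipogenic partners. All 10 were found among the 50559 gene symbols of each library, and all 10 were among the 16550 genes that passed the filter on low counts. The tissue was visceral white fat from FVB/N mice, in 4 groups of 3 libraries each. The transgenic high-fat and transgenic control-diet groups carried αMHC tTA x αMHC TGFb, a tetracycline transactivator and a TGF-b1 transgene, each driven by αMHC, a heart-specific promoter. The wild-type high-fat and wild-type control-diet groups were littermates with αMHC tTA alone, so the driver was present in all 12 libraries. The high-fat diet supplied 60% of energy from fat at 5.21 kcal/g and the control chow 17% at 3.1 kcal/g. Mice were 8 to 10 weeks old when the high-fat diet was given for 2 or 6 weeks, and the labels do not tie either duration to a library. The transgene was driven in the heart, not in the tissue measured.

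De novo lipogenesis turns glucose carbon into fat. Citrate exported from mitochondria is split by ATP citrate lyase (Acly) into acetyl-CoA, which acetyl-CoA synthetase (Acss2) can also make from acetate. Acetyl-CoA carboxylase (Acaca) forms malonyl-CoA, and fatty acid synthase (Fasn) builds palmitate from it with NADPH that malic enzyme (Me1) helps to supply. The transcription factors SREBP-1 (Srebf1), which responds to insulin, and ChREBP (Mlxipl), which responds to sugar metabolites, induce these genes in fat and liver. Dietary fat is known to lower the pathway in rodents.

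Libraries held 20.1 to 21.3 M gene counts. Values below are CPM, counts relative to the library's gene total and scaled by TMM factors, listed by replicate number. Nothing in the labels says that libraries came from separate mice, so the spread behind each p-value may be technical to some extent. Adipocyte markers were abundant throughout, with all 8 of 8 detected in every library. Their summed level was 28242 to 29866 CPM in transgenic high-fat, 34685 to 40024 CPM in transgenic control-diet, 26523 to 30640 CPM in wild-type high-fat and 28300 to 36595 CPM in wild-type control-diet tissue. Summed markers of other tissues stood apart in a few libraries. Epithelial markers reached 398 CPM in transgenic control-diet replicate 2 and 95.7 CPM in wild-type control-diet replicate 1, against 12.7 to 43.0 CPM in the other 10. Muscle markers were high in replicate 3 of the transgenic control-diet group (640 CPM) and of the wild-type high-fat group (469 CPM), and the other 10 libraries had 6.64 to 80.7 CPM. Liver markers reached 329.6 CPM in wild-type high-fat replicate 2, against 26.1 to 98.7 CPM in the other libraries. Schwann cell markers were highest in wild-type control-diet replicate 1, at 532 CPM. In whole tissue, fewer cells of a type and less RNA per cell cannot be told apart.

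The promoters of 4 of the genes are shown because the 10 genes moved together across libraries, as described below, and these 4 hold examples of the CCAAT box, the GC box and the E-box. Each runs from 250 bases before to 50 bases after a transcript start in RefSeq (GRCm38.p6, the assembly of the C57BL/6J reference rather than of FVB/N), 5′ to 3′ on the strand of the gene. Capitals mark CCAAT or its reverse complement ATTGG (the CCAAT box, bound by NF-Y), GGGCGG or CCGCCC (the GC box, bound by Sp1), and CACGTG (an E-box, a palindrome).
Fasn, chr11:120824498-120824797, minus strand: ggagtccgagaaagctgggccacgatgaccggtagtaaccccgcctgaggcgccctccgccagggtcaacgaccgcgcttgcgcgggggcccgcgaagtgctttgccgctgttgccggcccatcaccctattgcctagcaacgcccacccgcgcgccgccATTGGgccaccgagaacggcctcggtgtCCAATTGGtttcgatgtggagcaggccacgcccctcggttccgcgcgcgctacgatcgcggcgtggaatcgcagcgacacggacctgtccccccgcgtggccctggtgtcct
Thrsp, chr7:97417501-97417800, minus strand: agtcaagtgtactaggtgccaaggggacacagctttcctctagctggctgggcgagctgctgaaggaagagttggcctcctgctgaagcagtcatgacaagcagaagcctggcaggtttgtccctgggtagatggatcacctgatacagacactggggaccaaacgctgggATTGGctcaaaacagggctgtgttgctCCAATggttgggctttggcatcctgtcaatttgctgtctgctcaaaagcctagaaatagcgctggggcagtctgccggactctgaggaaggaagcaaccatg
Acly, chr11:100527951-100528250, minus strand: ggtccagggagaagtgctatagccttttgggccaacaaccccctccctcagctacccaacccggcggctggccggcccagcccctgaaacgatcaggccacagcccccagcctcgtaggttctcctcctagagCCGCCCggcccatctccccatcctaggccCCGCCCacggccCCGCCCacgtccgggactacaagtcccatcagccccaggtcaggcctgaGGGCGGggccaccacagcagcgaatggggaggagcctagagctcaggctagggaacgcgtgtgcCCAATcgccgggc
Mlxipl, chr5:135089640-135089939, plus strand: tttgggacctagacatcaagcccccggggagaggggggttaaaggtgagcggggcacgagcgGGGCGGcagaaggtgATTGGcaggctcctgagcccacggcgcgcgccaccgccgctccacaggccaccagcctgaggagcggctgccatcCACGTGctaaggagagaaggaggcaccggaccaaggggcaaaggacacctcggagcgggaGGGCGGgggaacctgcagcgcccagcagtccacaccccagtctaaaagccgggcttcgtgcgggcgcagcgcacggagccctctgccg
The Fasn window holds 3 CCAAT matches that begin 90, 62 and 59 bases before the start, of which the last pair overlap as CCAATTGG. The Thrsp window holds 2, which begin 79 and 52 bases before it. In the Acly window 4 GC boxes lie upstream of the start and 1 CCAAT match lies after it. The Mlxipl window holds the only CACGTG found in the set.

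RefSeq had 14 such windows for the 10 genes, since Me1 and Mlxipl had 2 each and Srebf1 had 3. Searched on both strands, CCAAT was present in 10 of the 14 windows, covering 9 genes, against 37.4% of 32851 windows of the same length over all genes. GGGCGG was present in 7 windows, covering 6 genes, against 35.7% of all windows. CACGTG was present in 1 of the 14, against 7.15%. The sterol response element TCACNCCAC was also present in 1, a second Mlxipl window, against 1.24%. The paired E-box, in which 2 CANNTG motifs stand 5 bases apart, was in 0 of the 14, against 0.767% of all. These are letter matches in short windows. The Acaca window was the only one without any of the 5 motifs. The windows of Acaca and Acacb, 1 each, lie inside their genes rather than at the first annotated base.

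By its median over libraries, fatty acid synthase stood highest of the 10 at the transcript level, but not in every group. Divided by transcript length in kb, the median over 12 libraries was 659 CPM per kb for Fasn, 444 for Thrsp and 327 for Pnpla3. A middle set followed, with 112 for Srebf1, 90.6 for Acly, 90.1 for Me1, 68.1 for Acaca and 61.2 for Acss2, and Acacb at 25.0 and Mlxipl at 23.4 were lowest. On the control diet Thrsp had a higher mean than Fasn. The means were 875 against 822 CPM per kb in transgenic and 1688 against 1209 CPM per kb in wild-type tissue. The ranges over libraries of every pair of neighbours in the order of medians overlapped. Genes further apart in it did not all overlap, and the lowest library of Fasn and of Thrsp lay above the highest of Srebf1, as the lowest of Srebf1 lay above the highest of Mlxipl. The 10 genes together took 0.726%, 0.821% and 1.26% of gene counts in transgenic high-fat and 1.32%, 1.37% and 1.43% in transgenic control-diet tissue. They took 0.664%, 0.623% and 0.513% in wild-type high-fat and 3.30%, 2.33% and 0.451% in wild-type control-diet tissue. Fasn alone supplied 47.5% to 70.8% of their summed CPM.

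The wild-type control-diet libraries did not form a tight group. Replicate 1 had the highest level of all 12 libraries for 7 of the 10 genes and replicate 2 for 2 (Pnpla3 and Srebf1). Replicate 3 had the lowest level of all 12 for 5 genes (Acly, Acss2, Fasn, Me1 and Pnpla3), and lay below all 3 transgenic control-diet libraries for 10 of 10. Replicates 1 and 2 lay above all 6 high-fat libraries for 10 of 10 genes. Beside these levels, the adipocyte marker sum was 36595 CPM in replicate 3, against 28300 and 34449 CPM in replicates 1 and 2. The brown adipocyte marker sum was 26.7 CPM in replicate 3, against 241 and 206 CPM in replicates 1 and 2, and Ucp1, the uncoupling protein of brown fat, had 0.0925 CPM there against 92.6 and 27.7 CPM. Its part in the low lipogenic level was not tested. Across the other groups the brown marker sum was 120 to 690 CPM in transgenic high-fat, 57.2 to 252 CPM in transgenic control-diet and 25.6 to 154 CPM in wild-type high-fat tissue.

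**Figure D1:**
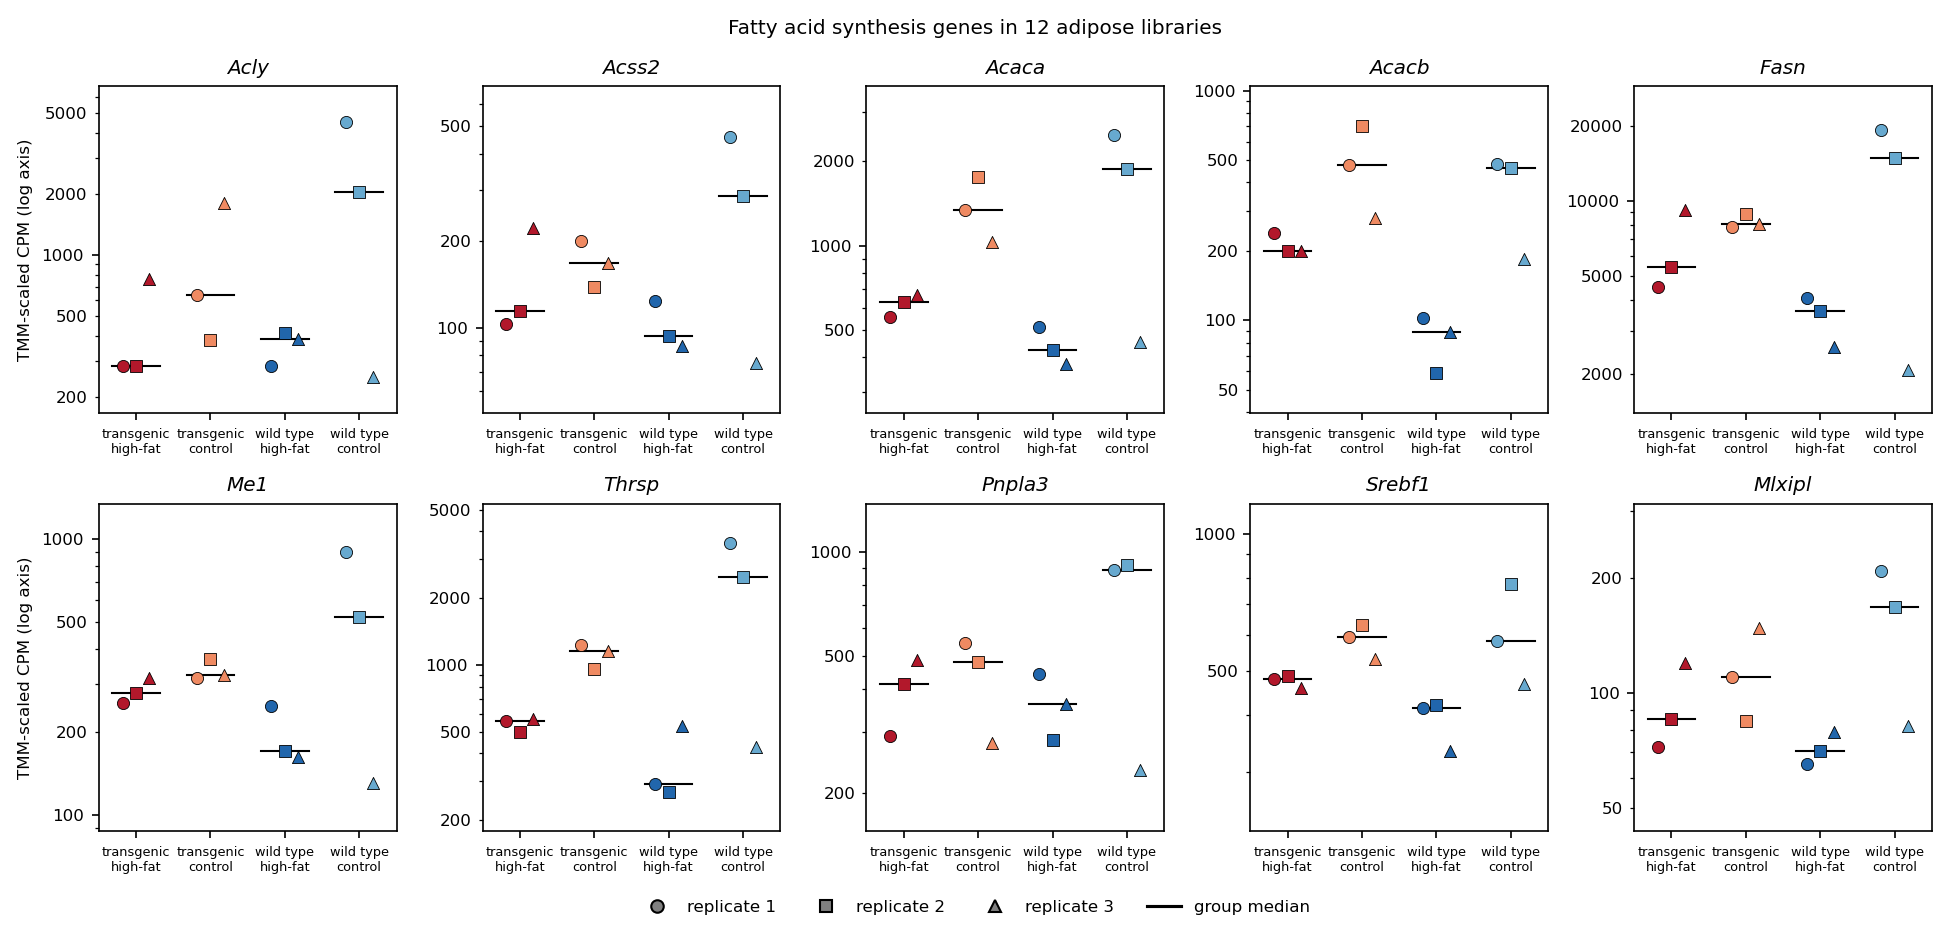
Level of each of the 10 genes in every library (CPM, log axis), by group from left to right: transgenic high-fat, transgenic control-diet, wild-type high-fat, wild-type control-diet. Each point is 1 library, its shape gives the replicate number and the line is the group median; the wild-type control-diet points spread furthest, for Acly from 250 to 4532 CPM.

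**Figure D2:**
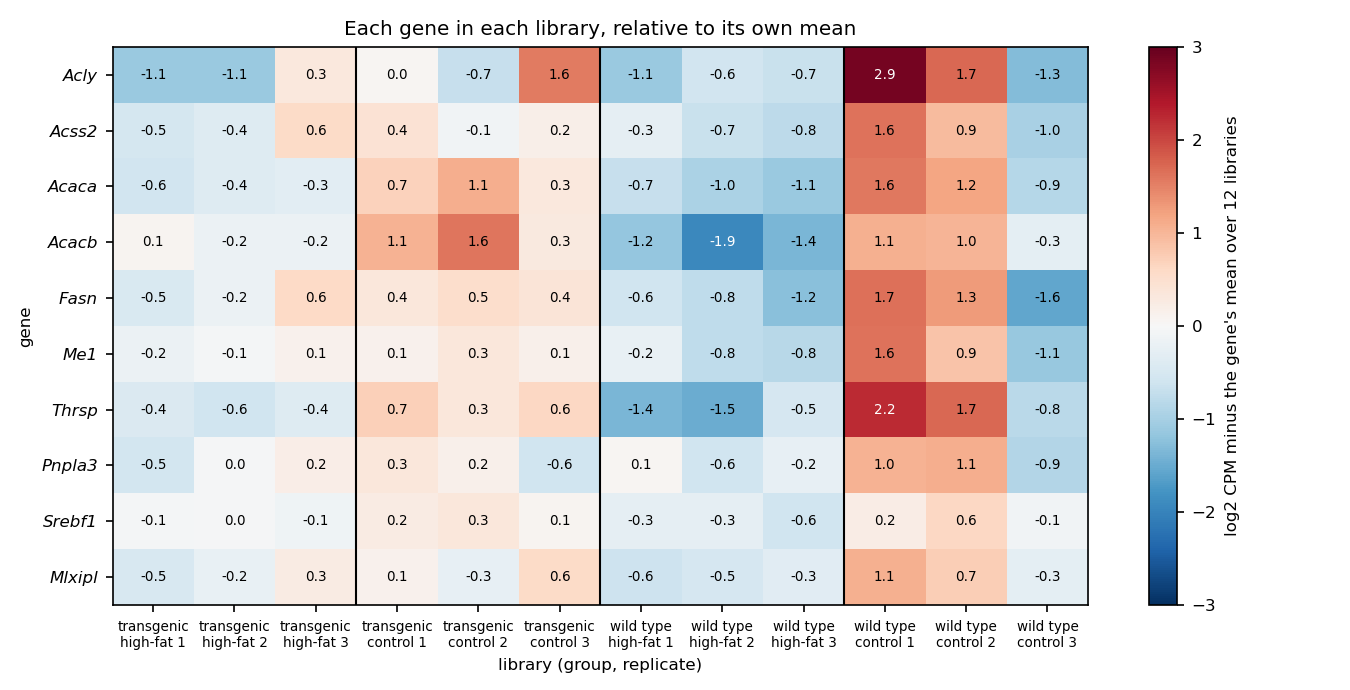
log2 CPM of each gene (rows) in each library (columns), centred on the gene's mean over 12 libraries, so 1 unit is a doubling. The columns of wild-type control-diet replicates 1 and 2 are high in nearly every row, and that of replicate 3 resembles the high-fat columns.

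RNA of the pathway was lower on the high-fat diet. Averaged over both genotypes, all 10 genes had negative log2 fold changes (high-fat over control diet), and 6 fell past an adjusted p of 0.05 (Acacb, Acaca, Thrsp, Srebf1, Acly and Mlxipl), where 7.98% of all tested genes fell. The median of the 10 log2 fold changes was -0.97, against -0.02 over all tested genes, of which 52.8% were negative. Largest in size was Acly (-1.87, to 0.274 of the control-diet level) and smallest Srebf1 (-0.47, 0.721 of it). Adjusted p-values here and below come from edgeR's quasi-likelihood test over all genes tested, with Benjamini-Hochberg adjustment. No gene of the 10 separated all 6 high-fat from all 6 control-diet libraries, since wild-type control-diet replicate 3 lay within or below the high-fat range. Over all genes, 2.79% lay lower in all 6 high-fat libraries. In transgenic tissue adipocyte and mesothelial marker sums were also lower on the high-fat diet, without overlap. The adipocyte markers did not all share this fall. Cfd had 5349, 4747 and 2558 CPM in transgenic high-fat against 12182, 6810 and 15698 CPM in transgenic control-diet libraries. Lep went the other way, at 1644, 1857 and 3475 against 849, 762 and 623 CPM. The mean log2 level of the 8 adipocyte markers overlapped between these groups. Mesothelial sums were 111 to 328 CPM in transgenic high-fat, 581 to 628 CPM in transgenic control-diet, 322 to 425 CPM in wild-type high-fat and 508 to 821 CPM in wild-type control-diet tissue. Macrophage marker sums were 614 to 940 CPM in transgenic high-fat, 484 to 533 CPM in transgenic control-diet, 667 to 800 CPM in wild-type high-fat and 636 to 824 CPM in wild-type control-diet tissue. The part of these cell types in the lower lipogenic levels was not tested.

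Of the enzymes that supply acetyl-CoA, Acly varied most of all 10 genes. It had 284, 286 and 762 CPM in transgenic high-fat and 636, 382 and 1812 CPM in transgenic control-diet libraries. It had 286, 415 and 387 CPM in wild-type high-fat and 4532, 2045 and 250 CPM in wild-type control-diet libraries. The wild-type control-diet libraries thus spanned 18.1-fold. Transgenic control-diet replicates 1 and 2 lay within the range of the transgenic high-fat libraries, and wild-type control-diet replicate 3 lay below all wild-type high-fat libraries. The log2 fold change with high-fat diet was -1.09 (SE 0.79, adjusted p = 0.419) in transgenic and -2.65 (SE 0.83, adjusted p = 0.125) in wild-type tissue, both by edgeR's quasi-likelihood test and neither past the threshold. Averaged over genotypes it passed (-1.87, SE 0.57, adjusted p = 0.041). Acly also moved apart from the carboxylase that uses its product. Per kb it was 1.10, 0.979 and 2.45 times Acaca in transgenic high-fat, 1.02, 0.466 and 3.77 times in transgenic control-diet, 1.20, 2.09 and 2.20 times in wild-type high-fat and 3.93, 2.34 and 1.18 times in wild-type control-diet libraries. Within each control-diet group 1 library stood highest, transgenic replicate 3 and wild-type replicate 1.

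Acss2, the acetate-using synthetase, followed a flatter course. Its levels were 103, 114 and 221 CPM in transgenic high-fat, 200.1, 139 and 167 CPM in transgenic control-diet, 124, 93.2 and 86.3 CPM in wild-type high-fat and 461, 287 and 75.5 CPM in wild-type control-diet libraries. Groups overlapped within both genotypes, and the log2 fold change was -0.21 (SE 0.48, adjusted p = 0.826) in transgenic and -1.44 (SE 0.49, adjusted p = 0.151) in wild-type tissue by edgeR's quasi-likelihood test. Acly stood at 1.12 to 2.17 times Acss2 per kb in all 6 high-fat libraries, and above 3 times in 3 of the 6 control-diet libraries: transgenic replicate 3 (5.25), wild-type replicate 1 (4.76) and wild-type replicate 2 (3.46). The Acss2 transcript used for length has 2145 bases, of which 2142 are coding, while its annotated exons together cover 10163 bases. Its level per kb may thus be too high, and its place in the order of medians and the size of these ratios are uncertain.

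The carboxylases had the smallest adjusted p-values for diet averaged over genotypes. Acaca encodes the cytosolic isoform that feeds fatty acid synthase. It had 555, 629 and 667 CPM in transgenic high-fat, 1341, 1760 and 1033 CPM in transgenic control-diet, 511, 426 and 379 CPM in wild-type high-fat and 2480, 1882 and 454 CPM in wild-type control-diet libraries. In transgenic tissue every high-fat library lay below every control-diet library. The log2 fold change was -1.16 (SE 0.43, adjusted p = 0.114) there and -1.87 (SE 0.44, adjusted p = 0.0606) in wild-type tissue by edgeR's quasi-likelihood test. Averaged over genotypes Acaca fell by 1.52 on the log2 scale (SE 0.31, adjusted p = 0.00695).

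Acacb encodes the isoform at the mitochondrial surface, whose malonyl-CoA restrains fatty acid oxidation. It had 239, 200.0 and 200.7 CPM in transgenic high-fat, 472, 697 and 279 CPM in transgenic control-diet, 102, 59.2 and 88.6 CPM in wild-type high-fat and 479, 459 and 185 CPM in wild-type control-diet libraries. High-fat and control-diet libraries did not overlap in either genotype. In wild-type tissue the fall passed the threshold (-2.17, SE 0.38, adjusted p = 0.0249 by edgeR's quasi-likelihood test), and in transgenic tissue it did not (-1.18, SE 0.36, adjusted p = 0.0641). Averaged over genotypes Acacb had the smallest adjusted p of the 10 genes (-1.67, SE 0.26, adjusted p = 0.00178).

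Fatty acid synthase itself and its NADPH supplier did not pass in any comparison by edgeR's quasi-likelihood test of all 12 libraries after the filter on low counts. With diet averaged over genotypes Fasn passed by DESeq2, by limma-voom and by edgeR without the filter, and Me1 by edgeR without the filter. Within wild-type tissue Fasn passed by DESeq2 and by edgeR without the filter, and Me1 by edgeR without the filter. Both genes also passed in each of these comparisons when wild-type control-diet replicate 3 was left out. Fasn had 4487, 5407 and 9230 CPM in transgenic high-fat, 7836, 8893 and 8048 CPM in transgenic control-diet, 4053, 3611 and 2586 CPM in wild-type high-fat and 19399, 14971 and 2088 CPM in wild-type control-diet libraries. Transgenic control-diet libraries agreed closely (coefficient of variation 6.77%, against 74.0% in wild-type control-diet libraries), and transgenic high-fat replicate 3 exceeded all of them. The log2 fold change with diet was -0.37 (SE 0.55, adjusted p = 0.719) in transgenic and -1.83 (SE 0.57, adjusted p = 0.124) in wild-type tissue by edgeR's quasi-likelihood test. Me1 had 255, 278 and 315 CPM in transgenic high-fat, 314.7, 369 and 321 CPM in transgenic control-diet, 249, 171 and 162 CPM in wild-type high-fat and 895, 524 and 131 CPM in wild-type control-diet libraries. Its log2 fold change was -0.24 (SE 0.45, adjusted p = 0.781) in transgenic and -1.41 (SE 0.46, adjusted p = 0.141) in wild-type tissue by the same test.

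Thrsp (Spot 14), a small acidic protein that promotes lipogenesis, moved with the enzymes. It had 561, 498 and 574 CPM in transgenic high-fat, 1237, 958 and 1155 CPM in transgenic control-diet, 292, 268 and 529.5 CPM in wild-type high-fat and 3545, 2493 and 428 CPM in wild-type control-diet libraries. Diet groups were apart in transgenic tissue and overlapped in wild-type tissue through control-diet replicate 3. The log2 fold change was -1.04 (SE 0.52, adjusted p = 0.232) in transgenic and -2.57 (SE 0.55, adjusted p = 0.0448) in wild-type tissue, and -1.80 (SE 0.38, adjusted p = 0.0078) averaged over genotypes, by edgeR's quasi-likelihood test. Pnpla3, a lipid droplet hydrolase induced with lipogenesis, had 293, 415 and 487 CPM in transgenic high-fat, 543, 479 and 280.4 CPM in transgenic control-diet, 443, 284 and 363 CPM in wild-type high-fat and 882, 917 and 233 CPM in wild-type control-diet libraries. It overlapped between diets in both genotypes and passed in no comparison (averaged over genotypes -0.51, SE 0.29, adjusted p = 0.25 by the same test).

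Averaged over genotypes, both regulators had smaller diet differences than each of the 6 enzymes, and that difference in size was not tested. Srebf1 had 479, 487 and 459 CPM in transgenic high-fat, 594, 632 and 531 CPM in transgenic control-diet, 414, 420.1 and 334 CPM in wild-type high-fat and 582, 774 and 469 CPM in wild-type control-diet libraries. Diet groups did not overlap in either genotype. The difference was -0.30 (SE 0.16, adjusted p = 0.272) in transgenic and -0.64 (SE 0.17, adjusted p = 0.0771) in wild-type tissue, and -0.47 (SE 0.12, adjusted p = 0.017) averaged over genotypes, on the log2 scale by edgeR's quasi-likelihood test. Mlxipl had 72.1, 85.4 and 119.6 CPM in transgenic high-fat, 110.0 CPM, 84.2 and 148 CPM in transgenic control-diet, 65.1, 70.5 and 79.0 CPM in wild-type high-fat and 209, 168 and 81.7 CPM in wild-type control-diet libraries. In wild-type tissue the groups lay just apart, at 79.0 and 81.7 CPM at their nearest. The log2 fold change was -0.31 (SE 0.30, adjusted p = 0.563) in transgenic and -1.09 (SE 0.30, adjusted p = 0.0943) in wild-type tissue, and -0.70 (SE 0.21, adjusted p = 0.041) averaged over genotypes, by edgeR's quasi-likelihood test. Gene counts do not separate the isoforms of either factor.

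**Figure D3:**
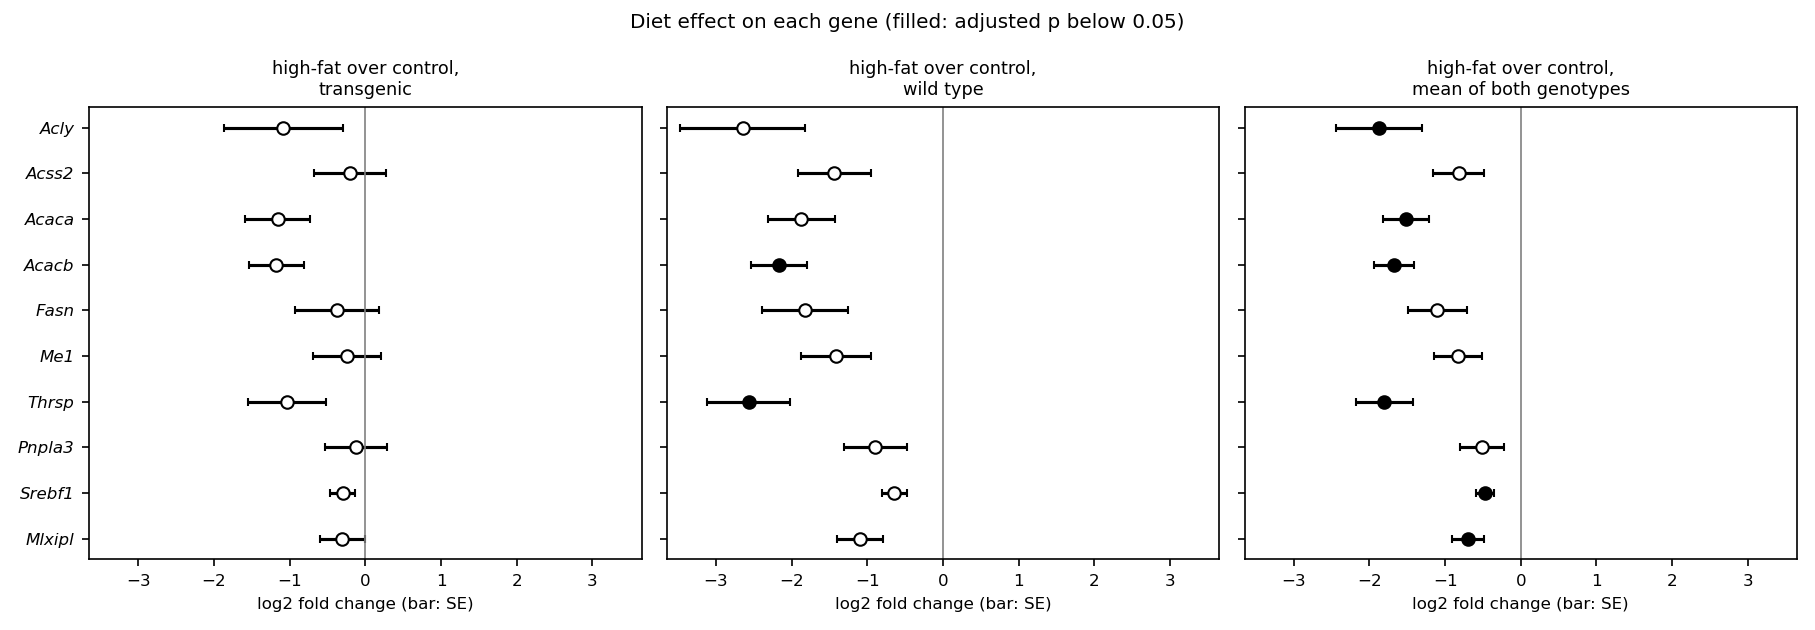
log2 fold change with high-fat over control diet for each gene, with its standard error as the bar (edgeR, 12 libraries), in transgenic tissue, wild-type tissue and averaged over both; filled points passed an adjusted p of 0.05. All 10 estimates are below 0 in each, and the wild-type ones are the larger in size for every gene.

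Within one genotype few of these differences passed. In transgenic tissue 0 of 10 were called, where 3.34% of tested genes fell, and 2 (Acaca and Acacb) had an unadjusted p under 0.05, as did 4278 of the 16550 genes. DESeq2 called 1 of the 10 there (Acacb), where it lowered 2.82% of all genes, and edgeR without the filter called 2 (Acaca and Acacb), with 2.54% lowered. In wild-type tissue 2 of 10 were called (Acacb and Thrsp), where 0.453% of tested genes fell, and 9 had an unadjusted p under 0.05, as did 2991 of all genes. More of the 10 passed there with other tools: 7 with DESeq2 (1.22% of all genes lowered), 5 with limma-voom (2.09%) and 9 with edgeR without the filter (1.03%). The members' median log2 fold change was -0.34 in transgenic and -1.63 in wild-type tissue, against -0.02 and -0.01 over all tested genes. Libraries did not overlap for 4 members in transgenic tissue (Acaca, Acacb, Thrsp and Srebf1), where 13.5% of all genes lay lower without overlap, and for 3 in wild-type tissue (Acacb, Mlxipl and Srebf1), where 12.4% did.

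These counts depended on single libraries, wild-type control-diet replicate 3 above all. Without it, 10 of 10 genes fell in wild-type tissue, where 1.01% of tested genes fell, 3 in transgenic tissue (Acaca, Acacb and Thrsp; 3.41% of all genes) and 10 of 10 averaged over genotypes (6.87%). The wild-type count, 2 with all 12 libraries (0.453% of tested genes lowered), was 0 without control-diet replicate 1 or without control-diet replicate 2. It was also 0 without any 1 high-fat library, and 1 without any 1 transgenic library. It was 0 without the 2 libraries with epithelial markers (0.0711% of all genes lowered) or without the 2 with muscle markers. Of the fits without 1 library, the share over all genes is given only for that without wild-type control-diet replicate 3. That share is also not given for the fit without the libraries with muscle markers. The lower counts can therefore not be read as particular to these genes. Averaged over genotypes, the count ranged from 4 to 10 when 1 library was left out, and Acaca, Acacb, Thrsp and Srebf1 were called in all 12 such fits. Without the 2 libraries with epithelial markers it was 3 (Acaca, Acacb and Thrsp; 4.62% of all genes). It was 7 with DESeq2 (4.87%), 7 with limma-voom (8.87%) and 9 with edgeR without the filter (4.13%). The authors' deposited tables, made with DESeq2, call 3 of the 10 in transgenic tissue (Acaca, Acacb and Thrsp; 3.95% of the genes with an adjusted p in that table fell) and 4 in wild-type tissue (Acacb, Thrsp, Mlxipl and Srebf1; 2.92% fell).

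**Figure D4:**
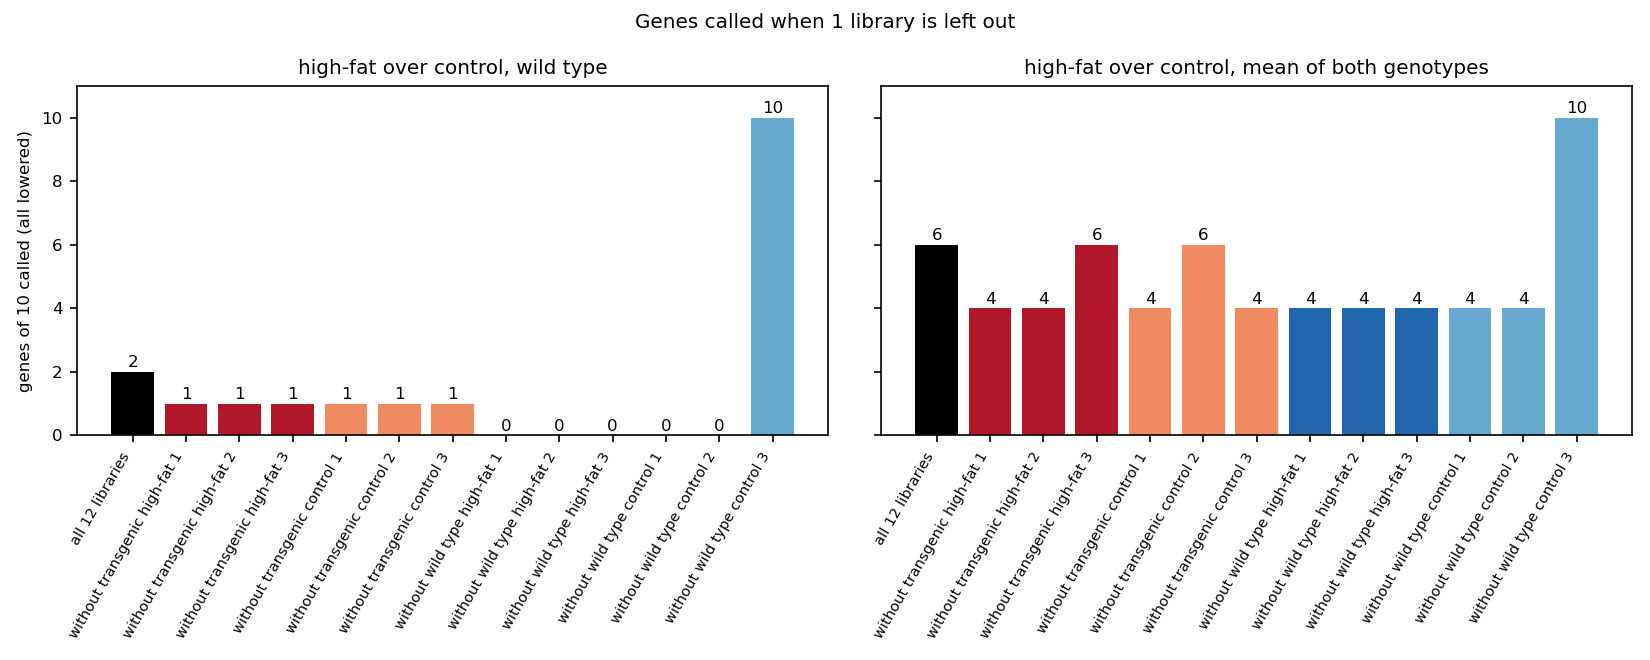
Number of the 10 genes called (adjusted p below 0.05, edgeR) with all 12 libraries (black) and when each library in turn is left out (bars coloured by group), for the diet difference in wild-type tissue (left) and averaged over both genotypes (right). The wild-type count is 10 without wild-type control-diet replicate 3, where 1.01% of tested genes fell. It is 0 without wild-type control-diet replicate 1 or 2, where the share over all genes is not given.

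Whether the diet difference itself depended on genotype was tested as an interaction, by subtracting the wild-type diet log2 fold change from the transgenic one. All 10 differences were positive, from 0.34 for Srebf1 to 1.56 for Acly, with a median of 1.08 against 0.01 over all genes. None passed by edgeR's quasi-likelihood test (adjusted p from 0.864 to 0.921), where 0% of all genes were called, and 0 members and 929 genes had an unadjusted p under 0.05. DESeq2 also called 0 of the 10. The intervals were wide. For Fasn the difference was 1.46, with a 95% interval of -0.24 to 3.16, and for Thrsp it was 1.53, with an interval of -0.06 to 3.13. The 10 positive signs are not separate evidence, since the genes rise and fall together within libraries.

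On the high-fat diet each of these genes had a higher estimate in transgenic tissue, and none passed the test over all genes. All 10 log2 fold changes (transgenic over wild type) were positive, with a median of 0.51 against 0.00 over all genes. By edgeR's quasi-likelihood test 0 of 10 were called, where 0% of all genes were, and by DESeq2 also 0, while 1 member and 1114 genes had an unadjusted p under 0.05. That member was Acacb, at 239, 200.0 and 200.7 CPM in transgenic high-fat against 102, 59.2 and 88.6 CPM in wild-type high-fat libraries (log2 fold change 1.36, 95% interval 0.56 to 2.15, adjusted p = 0.712 by edgeR's quasi-likelihood test). The Acacb value was 1.16 to 1.53 when 1 library was left out. The authors' deposited table gives a log2 fold change of 1.35 with an adjusted p of 5.13e-10, where 0.372% of its genes with an adjusted p were called higher. The estimate was thus alike and the significance was not, and over the 21 alternatives run here the adjusted p for Acacb ranged from 0.0622 (edgeR without the filter) to 0.942 (edgeR without wild-type high-fat replicate 1). Transgenic libraries lay above all wild-type libraries for 5 of 10 genes (Acaca, Acacb, Fasn, Me1 and Srebf1), where 7.52% of all genes did. Fasn had 4487 CPM in its lowest transgenic and 4053 CPM in its highest wild-type library (log2 fold change 0.90, SE 0.56, adjusted p = 0.80 by the same test).

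The balance of the carboxylases also differed between genotypes on the high-fat diet. Per kb of transcript, Acaca was 2.14, 2.90 and 3.07 times Acacb in transgenic high-fat libraries, against 4.63, 6.65 and 3.95 times in wild-type high-fat libraries, with no overlap. On control diet it was 2.62, 2.33 and 3.42 times in transgenic and 4.78, 3.78 and 2.27 times in wild-type libraries, which overlapped. This ratio was chosen after the values were seen and carries no test.

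On the control diet the transgene comparison gave no call. Of the 10 log2 fold changes 9 were negative and Acacb was positive (0.37, SE 0.36), with a median of -0.59 against 0.00 over all genes. By edgeR's quasi-likelihood test 0 of 10 passed (0.0363% of all genes did), 0 had an unadjusted p under 0.05, as did 1816 of all genes, and DESeq2 called 0. Transgenic libraries lay above all wild-type libraries for 0 of 10 genes (6.5% of all genes did) and below them for 0 (7.56% did), because wild-type replicate 3 lay below all transgenic libraries for all 10 and replicate 1 lay above them for 8. The sign for Acaca and Me1 was positive without wild-type control-diet replicate 1 (0.23 and 0.02).

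**Figure D5:**
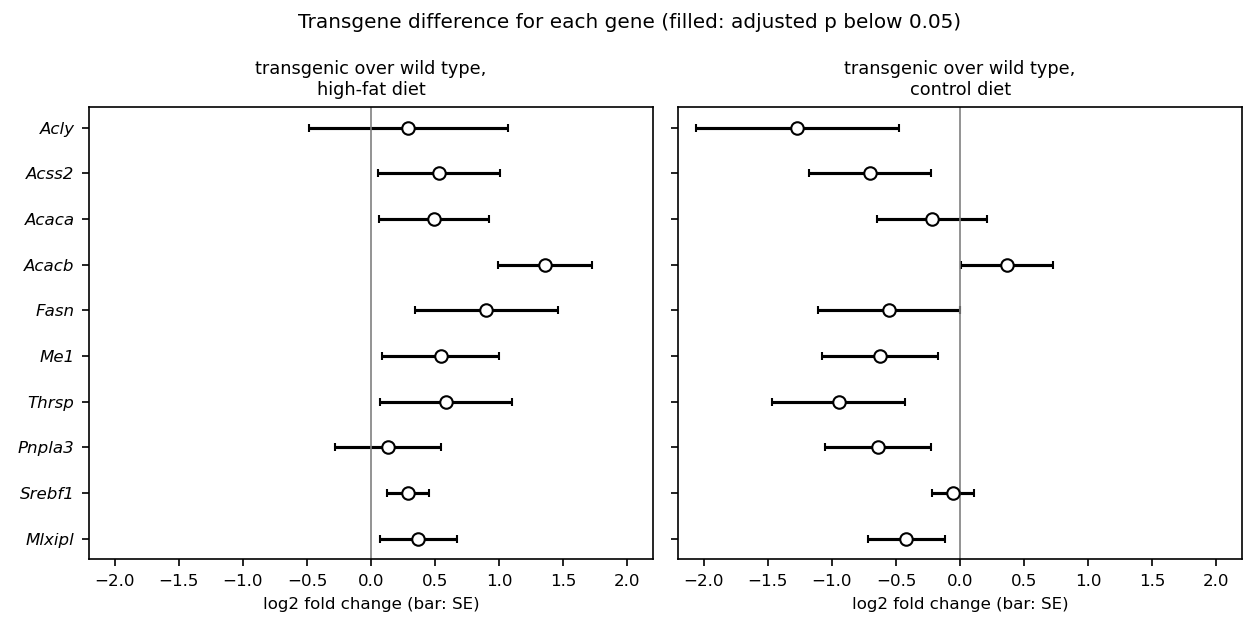
log2 fold change of transgenic over wild-type tissue for each gene, on the high-fat diet (left) and on the control diet (right), with its standard error as the bar (edgeR, 12 libraries). On the high-fat diet all 10 estimates are above 0 and on the control diet 9 are below it, and all points are open because 0 passed an adjusted p of 0.05.

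Steps before and after the core pathway were counted in the same way. Averaged over genotypes, 7.98% of all tested genes fell. Of 15 genes that supply citrate, acetyl-CoA and NADPH, 5 fell and 0 rose, with a median of -0.32. They included pyruvate carboxylase (Pcx, -0.72, adjusted p = 0.0168), which replenishes oxaloacetate, and the mitochondrial citrate carrier (Slc25a1, -0.79, adjusted p = 0.0337), both by edgeR's quasi-likelihood test, with cytosolic malate dehydrogenase (Mdh1, -0.42) and cytosolic isocitrate dehydrogenase (Idh1, -0.32). Of 12 genes for elongation, desaturation and esterification, 4 fell and 0 rose, with a median of -0.11. The delta-5 desaturase Fads1 fell by 0.87 on the log2 scale (adjusted p = 0.00109), the delta-6 desaturase Fads2 by 0.57, the elongase Elovl6 by 1.28 and the acyltransferase Gpam by 0.43. Fads1 and Fads2 also fell within transgenic tissue (-1.09 and -0.70). Elovl6, which lengthens the palmitate that fatty acid synthase makes, had 88.9, 102 and 106 CPM in transgenic high-fat, 152, 123 and 151.5 CPM in transgenic control-diet, 97.7, 72.0 and 65.7 CPM in wild-type high-fat and 496, 414 and 51.6 CPM in wild-type control-diet libraries. Like Fasn, it was high in wild-type control-diet replicates 1 and 2 and low in replicate 3.

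Of 17 regulators 2 fell and 0 rose, with a median of -0.07, a count near the share over all tested genes. The 2 were Mid1ip1, the paralog of Thrsp (-0.79), and Prkaa2, a catalytic subunit of AMP-activated kinase (-0.46). Mlxip, a paralog of Mlxipl, did not pass (0.26), and neither did Insig2, which retains SREBP in the endoplasmic reticulum. Of 8 measured related isoforms 2 fell and 0 rose: Pnpla2, the triglyceride lipase of adipocytes and one of the adipocyte markers (-0.52, and -0.64 within wild-type tissue), and the mitochondrial malonyl transferase Mcat (-0.39). Me3 and Acss3 did not pass. In the transgene comparisons and the interaction 0 genes of these 4 lists passed. Lists were chosen with earlier results known, and a share of 7.98% of all genes fell. The share of all genes that rose is not given here.

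The genes whose profile over the 12 libraries was most like the mean of the 10 were, by Pearson r of log2 CPM among 14197 genes with at least 1 CPM, Ints4 (0.974), Slc25a1 (0.966), Gm5182 (0.961), Elovl6 (0.959), Pdhx (0.953) and Ddhd2 (0.946). The r describes 12 libraries that fall into 4 groups and carries no p. Among the 10 themselves it ran from 0.808 for Acacb and 0.811 for Srebf1 to 0.959 for Fasn and Thrsp, each of which is part of that mean. Slc25a1 and Elovl6 were described above, Pdhx is a component of the pyruvate dehydrogenase complex and Ddhd2 a lipase. Ints4, an Integrator subunit, varied only 1.77-fold between its lowest and highest library. It starts at position 97480951 of chromosome 7 and the nearby Thrsp ends at 97417550 (GRCm38.p6).

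Gm5182 is a processed pseudogene of Acaca on chromosome 12. Its transcript was 99.199% identical to that of Acaca over 6118 aligned bases, and its count was 12.6% to 15.6% of that of Acaca in every library. Gm7049, a near copy of Me1 (98.427% over 1716 bases), had 17.6% to 23.3% of the count of Me1. Reads from either gene can be split between it and its copy, so the levels of Acaca and Me1 are uncertain. Exons of Me1, Mlxipl, Srebf1 and Acss2 overlap a gene on the other strand over up to 9.12% of their length, those of Pnpla3 overlap Gm49513 on the same strand over 6.78%, and the strand setting of the counting is not given in the sources used here.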

How the data were processed

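The 12 RNA libraries of visceral fat were placed in 4 groups of 3 by their titles. The authors deposited raw read counts per gene, as whole numbers. The tools named in the submitters' processing notes are HTSeq 2.0, HISAT2 2.2.0 and DESeq2 1.32.0, with build mm10. Strand setting and annotation: not given in the sources used here. The authors also deposited 4 tables of comparisons with a log2 fold change, score, p-value and mean signal per gene, per the file headers, of which only the log2 fold change and adjusted p are quoted. The 5 summary entries for unassigned reads, 16.8% to 21.0% of the total, were left out. Library totals were 20.1 to 21.3 M counts, and the closest pair of libraries differed by a chi-square of 20.7 per degree of freedom, so none is a copy.

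Counts were fitted in R 4.3.3 with edgeR 4.0.16: filterByExpr (minimum count 10, minimum total 15; 16550 genes), TMM scaling, group means over all 12 libraries (8 residual degrees of freedom) and the quasi-likelihood F test, adjusted by Benjamini-Hochberg and called below 0.05. The 6 comparisons were diet within each genotype and averaged over both, transgene within each diet, and the interaction. The standard error is the log2 fold change divided by the square root of F. Members, gene lists and comparisons were chosen with earlier results of these data known. All members are named, with up to 4 genes of each list by the smallest unadjusted p averaged over genotypes and the 6 genes most alike by r. A further list of the lipid pathways is not reported here. Lengths are of the GENCODE vM21 transcript with the longest coding sequence. Near copies were searched with BLAST 2.17.0 (at least 95% identity over 500 bases). Alternatives were DESeq2 1.42.0, limma-voom with limma 3.58.1, other size factors, no filter, the compared groups alone, a replicate block, and leaving libraries out. The fit was also run on simulated counts with the same spread for every gene and changes in transgenic high-fat libraries only. That setting lacks the wide spread of the wild-type control-diet libraries, and its outcome is not reported here. The number of libraries, 3 a group, limits the precision.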

Additional observations from a re-analysis of the deposited data

How the results depend on the processing

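The sign of every diet log2 fold change was kept under all alternatives except that of Pnpla3 in transgenic tissue (-0.36 to 0.079 with 1 library left out, above 0 without transgenic control-diet replicate 1 and, at 0.062, without transgenic high-fat replicate 1). In transgenic tissue 0 members were called, where 3.34% of all tested genes fell. The count became 2 with no filter beyond 1 count (2.54% of all genes lowered) and 1 with DESeq2 (2.82%). It was 2 with only the compared groups, 1 without the libraries with muscle markers, and 0 to 3 over fits that left out 1 library. In wild-type tissue the count of 2 (0.453%) became 9 with no filter beyond 1 count (1.03%), 7 with DESeq2 (1.22%) and 5 with limma-voom (2.09%). It became 1 with only the compared groups and 0 without the libraries with epithelial markers (0.0711%). It was 0 without those with muscle markers and 0 to 10 with 1 library left out. Averaged over genotypes the count of 6 (7.98%) became 3 without the libraries with epithelial markers (4.62%) and 4 to 10 with 1 library left out. Where no share over all genes is printed here or above, a count cannot be read as particular to the members. The cause of these shifts was not tested. For both transgene comparisons and the interaction the count was 0 under every alternative run. Replicate numbers did not pair the libraries: same-numbered libraries of different groups correlated at -0.11 to 0.27, above 0.1 in 4 of 18 pairs, and a library correlated best with its own number in 9 of 36 cases. With the replicate block 1 member was called in wild-type tissue and 4 averaged over genotypes. That fit has fewer residual degrees of freedom, and its share of genes called over all genes is not given here. Signs of small transgene differences turned. On the high-fat diet Acly became -0.0356 with limma-voom and ranged from -0.35 (without transgenic high-fat replicate 3) to 0.52 with 1 library left out, and Pnpla3 from -0.040 (without the same library) to 0.30. On the control diet the range with 1 library left out was -0.66 to 0.23 for Acaca and -1.09 to 0.020 for Me1, both highest without wild-type replicate 1, -0.000315 (without transgenic replicate 2) to 0.64 for Acacb, and -0.21 to 0.15 (without wild-type replicate 2) for Srebf1. Srebf1 became 0.0088 without the libraries with muscle markers, and without those with epithelial markers Acly became 0.083, Acaca 0.015, Mlxipl 0.042 and Acss2 0.012.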
